A study of Mus musculus with 6 samples.

Results

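The enzymes that build triglyceride from glycerol 3-phosphate, and those that make glycerol 3-phosphate from pyruvate, were followed in RNA sequencing of mouse white adipose tissue. The 10 genes were listed by name and matched by symbol to the Ensembl identifiers of the deposited table, where all 10 were found among 22040 genes. They are Pck1, Gpd1, Gpam, Gpat3, Gpat4, Agpat2, Agpat3, Lpin1, Dgat1 and Dgat2. The series holds 3 Rb1 samples, from mice injected intraperitoneally with 14 mg/kg of the ginseng saponin ginsenoside Rb1 per day, and 3 CTR samples, from mice injected by the same route with saline. In its title the series names myostatin and obesity. The sources used here state neither the fat depot nor the strain, sex, age, diet or treatment time of the mice, and the labels do not say whether each sample is a separate mouse. P-values therefore reflect how far these samples vary, and some of that variation may be technical.

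Triglyceride is made by adding fatty acyl groups, carried on coenzyme A, to a glycerol 3-phosphate backbone. Glycerol 3-phosphate acyltransferases add the first acyl group, acylglycerol phosphate acyltransferases the second, lipins then remove the phosphate, and diacylglycerol acyltransferases complete the molecule. White fat has little glycerol kinase, so it draws the backbone from glycolysis or from glyceroneogenesis, in which cytosolic phosphoenolpyruvate carboxykinase (Pck1) supplies the carbon and glycerol 3-phosphate dehydrogenase (Gpd1) makes the backbone. Glyceroneogenesis is known for re-esterifying fatty acids in fat during fasting.

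Promoter windows from RefSeq on GRCm38.p6 were available for 6 of the 10 genes (for Gpam at 2 starts) and run from 250 bases before to 50 bases after an annotated start. Of these, 4 are shown: Pck1, the gene with the largest fold change, Gpam and Agpat3, whose FPKM values did not overlap between groups, and Agpat2, whose values varied most between Rb1 libraries. Sequences are written on the strand of the gene, and capitals mark matches to motifs searched on both strands. The motifs were the E-box CACGTG (in 7.15% of all windows), the cyclic AMP response element TGACGTCA (1.79%) and its variant TTACGTCA, the TATA box TATAAA (13.6%), the CCAAT box, the GC box GGGCGG, the nuclear receptor half-site AGGTCA (16.3%) and its direct repeat with a spacing of 1 base, DR1 (0.0396%), which contains the half-site.
Pck1, chr2:173152823-173153122, plus strand: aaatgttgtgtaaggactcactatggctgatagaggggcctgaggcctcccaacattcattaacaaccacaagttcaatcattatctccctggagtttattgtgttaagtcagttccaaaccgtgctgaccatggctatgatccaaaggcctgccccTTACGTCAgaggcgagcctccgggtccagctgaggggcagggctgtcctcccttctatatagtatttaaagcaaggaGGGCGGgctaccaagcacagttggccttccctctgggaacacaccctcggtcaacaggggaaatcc
Gpam, chr19:55127189-55127488, minus strand: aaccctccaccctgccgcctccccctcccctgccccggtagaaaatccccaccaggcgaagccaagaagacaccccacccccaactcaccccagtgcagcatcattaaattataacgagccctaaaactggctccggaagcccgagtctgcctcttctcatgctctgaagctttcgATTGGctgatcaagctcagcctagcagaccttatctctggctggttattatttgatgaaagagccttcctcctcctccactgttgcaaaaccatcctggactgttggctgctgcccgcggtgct
Agpat2, chr2:26604368-26604667, minus strand: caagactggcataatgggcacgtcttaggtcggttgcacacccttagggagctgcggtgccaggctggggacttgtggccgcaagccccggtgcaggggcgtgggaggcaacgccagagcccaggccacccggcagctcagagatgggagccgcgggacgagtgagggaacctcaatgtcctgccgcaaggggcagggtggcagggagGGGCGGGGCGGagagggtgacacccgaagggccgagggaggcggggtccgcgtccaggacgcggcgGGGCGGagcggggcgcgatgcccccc
Agpat3, chr10:78351651-78351950, minus strand: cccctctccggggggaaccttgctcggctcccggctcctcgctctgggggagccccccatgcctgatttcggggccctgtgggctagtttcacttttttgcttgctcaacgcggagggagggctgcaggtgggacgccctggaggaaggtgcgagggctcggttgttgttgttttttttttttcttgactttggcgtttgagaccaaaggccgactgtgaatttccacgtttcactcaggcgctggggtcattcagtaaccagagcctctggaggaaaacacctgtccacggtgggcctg
The Pck1 window held TTACGTCA, a variant of the cyclic AMP response element, 93 bases before the start. The same letters stood in 0.499% of 32851 promoter windows. Pck1 also held 1 GC box, a motif found in 35.7% of windows, and Agpat2 held 3, of which 2 overlap. The Gpam window held CCAAT on the opposite strand, 74 bases before the start, as did 37.4% of windows on either strand. A second annotated start of Gpam, inside the gene, has a window with a GC box and AGGTCA before it, and is not shown. None of these motifs was in the Agpat3 window, which says only that these letters are not there.

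The libraries held 15440339 to 24501446 counts in the Rb1 group and 19125095 to 23509621 in the CTR group. Counts of the 10 genes in a library ran from 1266 to 44900. All 10 mature adipocyte markers were detected, and together they took 1.86% to 2.36% of counts in Rb1 samples and 1.83% to 2.12% in CTR samples. CTR replicate 2 stood apart through skeletal muscle transcripts: 10 muscle markers took 2.67% of its counts, against 0.0340% and 0.0374% in the other CTR samples and 0.00360% to 0.0159% in Rb1 samples. The 10 macrophage markers took 0.107% to 0.167% in Rb1 samples and 0.187% to 0.223% in CTR samples, with no overlap. Of these markers 7 were lower in every Rb1 sample, beside 10.5% of all genes tested, and Csf1r, Mrc1 and Cd163 overlapped. Cd163 had a mean of 21.9 FPKM in Rb1 samples and 19.3 in CTR samples. Rb1 replicate 1 had the highest share of endothelial markers, 0.225%, against 0.124% and 0.150% in the other Rb1 samples and 0.125% to 0.153% in CTR samples, and all 5 endothelial markers peaked there. Hepatocyte and kidney markers, from tissues that also use Pck1, took 0.00422% to 0.00610% in Rb1 samples and 0.00276% to 0.00379% in CTR samples. Of its 8 genes, Alb was higher in every Rb1 sample (6.10 to 14.8 FPKM, against 1.59 to 4.45 in CTR samples), Serpina1a was lower in every Rb1 sample (0.499 to 0.712 FPKM, against 0.804 to 0.949), and the other 6 overlapped. Kap had the highest mean, 12.9 FPKM in Rb1 samples and 13.9 in CTR samples, and none of the 8 was at 0 in all samples. The part of these cell types in the results was not tested. In bulk tissue, fewer cells of a type and less RNA per cell cannot be told apart.

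None of the 10 genes passed the threshold of 0.05 after Benjamini-Hochberg adjustment over the 14093 genes tested with the edgeR quasi-likelihood test, which called 0.00710% of all genes. Adjusted p-values of the 10 lay between 0.410 and 0.836. DESeq2 also called 0 of 10, against 2.56% of all genes (0.548% higher and 2.01% lower in Rb1), and its smallest adjusted p among them was 0.164, for Pck1. At an unadjusted p under 0.05, edgeR had 2 of the 10 on the higher side (Pck1 and Gpat4), against 4.01% of all genes, and 0 on the lower side, against 7.54%. The 10 genes divided evenly, with 5 positive and 5 negative log2 fold changes and a median of -0.03, beside 0.01 over all genes. Their median absolute log2 fold change was 0.24, and that of all genes was 0.16.

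**Figure D1:**
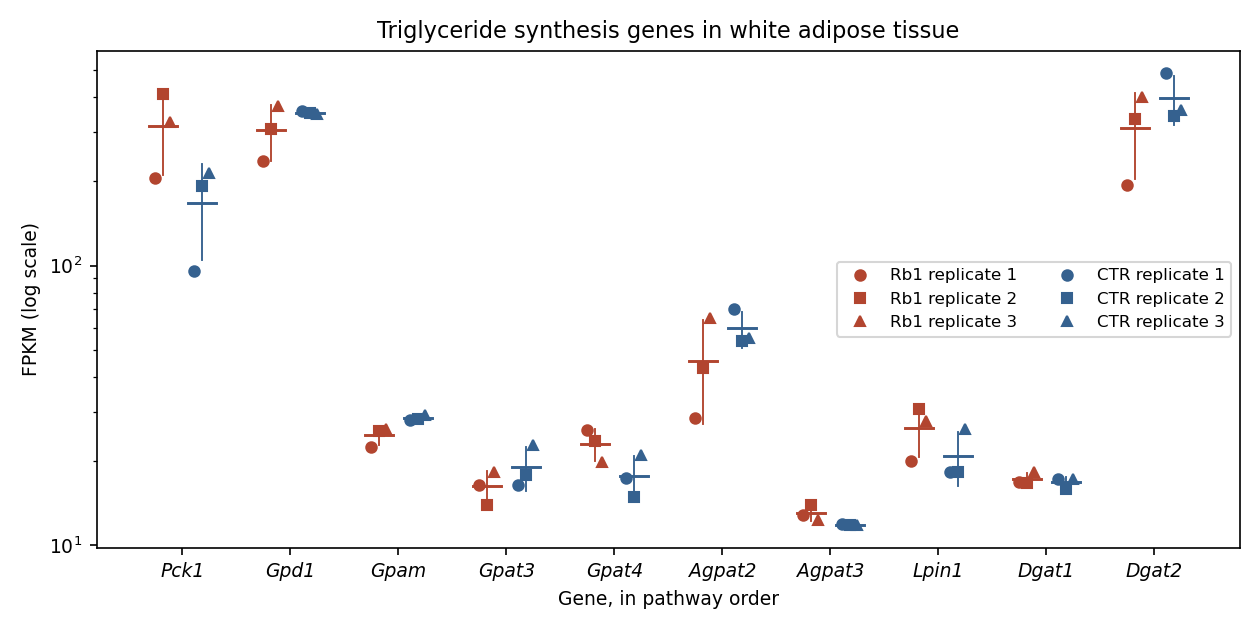
FPKM of the 10 genes (log scale) in pathway order, with Rb1 samples left of CTR samples, each symbol 1 library, horizontal lines the means and vertical lines the SD (n = 3 each). Pck1 averaged 315 FPKM in Rb1 samples and 168 in CTR samples, and Dgat2 and Agpat2 reached their lowest values in Rb1 replicate 1.

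The genes fell into an abundant and a less abundant tier. Pck1, Gpd1 and Dgat2 supplied 81.7% to 86.3% of the summed FPKM of the 10 in Rb1 samples and 83.5% to 84.7% in CTR samples. FPKM is a level per gene length, so comparisons between genes depend on the lengths used. The deposited values imply 5611 bases for Pck1, 3950 for Gpd1, 3926 for Dgat2 and 2734 for Agpat2. Agpat2 has 2130 annotated exon bases, and whether the lengths match the transcripts was not tested. In Rb1 samples the means of the 3 abundant genes were close, at 315 ± 104 for Pck1, 310.3 ± 106 for Dgat2 and 306 ± 68.6 for Gpd1 (SD, n = 3), and did not differ beyond their spread. CTR samples had 397 ± 79.1 for Dgat2, 352 ± 4.17 for Gpd1 and 168 ± 63.6 for Pck1 (SD, n = 3), and there every Pck1 value lay below every Gpd1 and Dgat2 value. Agpat2 came next, at 45.4 ± 18.3 in Rb1 samples and 59.5 ± 8.85 in CTR samples (SD, n = 3 each). The remaining 6 lay between 12.3 and 30.7 FPKM in single Rb1 samples and between 11.8 and 29.3 in single CTR samples, and Agpat3 had the lowest mean in both groups. Summed over the 10 genes, FPKM was 780, 1222 and 1290 in Rb1 replicates 1, 2 and 3, against 1119, 1048 and 1108 in the CTR replicates, so the groups overlapped.

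In glyceroneogenesis Pck1 (ENSMUSG00000027513) converts oxaloacetate to phosphoenolpyruvate. On GRCm38 the plus strand of chromosome 2 holds it from 173153048 to 173159273, with no exon position shared with another annotated gene. Pck1 stood at 206, 413 and 327 FPKM in Rb1 replicates 1, 2 and 3, against 95.7, 193 and 215 in CTR replicates 1, 2 and 3. Rb1 replicates 2 and 3 were above all CTR samples, and Rb1 replicate 1 lay between CTR replicates 2 and 3, so the groups overlapped. The log2 fold change was 0.95 (SE 0.40, 95% interval 0.01 to 1.89, edgeR adjusted p = 0.429), the largest of the 10. It ran from 0.65 without CTR replicate 1 to 1.21 without Rb1 replicate 1, and was 1.06 without CTR replicate 2, the library with muscle transcripts. With the mature adipocyte markers Adipoq, Plin1, Cidec and Fabp4 as the scale it was 0.85. Pck2, the mitochondrial isoenzyme, was near 1 FPKM in all samples, so Pck1 made up 99.4% to 99.7% of the summed FPKM of the pair in Rb1 samples and 98.5% to 99.5% in CTR samples.

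Gpd1 (ENSMUSG00000023019), the cytosolic dehydrogenase that reduces dihydroxyacetone phosphate to glycerol 3-phosphate, is found on chromosome 15, plus strand, from 99717515 to 99725005. Its exons overlap the antisense gene Gm16537. Gpd1 stood at 236, 308 and 373 FPKM in Rb1 replicates 1, 2 and 3, against 357, 351 and 349 in the CTR replicates. The CTR values were nearly equal and the Rb1 values lay on both sides of them. The coefficient of variation was 22.4% in Rb1 samples and 1.18% in CTR samples. The log2 fold change was -0.15 (SE 0.20, 95% interval -0.63 to 0.33, edgeR adjusted p = 0.836), with 0.04 when Rb1 replicate 1 was left out and -0.34 when Rb1 replicate 3 was.

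Of the genes for the first acylation, Gpam encodes the enzyme of the outer mitochondrial membrane, and Gpat3 and Gpat4 encode enzymes of the endoplasmic reticulum. Gpam (ENSMUSG00000024978) lies on chromosome 19 from 55067268 to 55127238 on the minus strand and shares no exon positions. Its values were 22.4, 25.6 and 25.9 FPKM in the Rb1 replicates, against 27.9, 28.3 and 29.3 in the CTR replicates. All Rb1 values lay below all CTR values, as they did for 10.5% of the genes tested. The gap between the groups was small, the edgeR log2 fold change was -0.17 (SE 0.12, 95% interval -0.45 to 0.12, adjusted p = 0.663), and the groups overlapped once counts were scaled by TMM. Without Rb1 replicate 1 the log2 fold change was -0.06.

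Gpat4 (ENSMUSG00000031545), on chromosome 8 from 23171265 to 23208346 on the minus strand, shares no exon positions with another gene. It stood at 25.8, 23.5 and 19.7 FPKM in the Rb1 replicates, against 17.3, 14.8 and 21.0 in the CTR replicates. Rb1 replicates 1 and 2 were above all CTR samples, and Rb1 replicate 3 was below CTR replicate 3. The log2 fold change was 0.41 (SE 0.16, 95% interval 0.03 to 0.80, edgeR adjusted p = 0.410), with the smallest p-value of the 10. It was 0.31 without CTR replicate 2, which held the lowest value. Gpat3 (ENSMUSG00000029314), on chromosome 5 (plus strand, 100845713 to 100899102), overlaps exons of 4930458D05Rik and Gm42987. Its values were 16.4, 13.9 and 18.3 FPKM in the Rb1 replicates, against 16.3, 17.7 and 22.8 in the CTR replicates, with a log2 fold change of -0.19 (SE 0.18, edgeR adjusted p = 0.749). That value was -0.02 without CTR replicate 3, the highest library, -0.11 without Rb1 replicate 2, and -0.31 without Rb1 replicate 3 or without CTR replicate 1. The fourth family member, Gpat2, had 5 counts in Rb1 replicate 3, 1 in CTR replicate 1 and 0 elsewhere, which allows up to 0.194 CPM in the shallowest of those libraries for counting error alone.

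The second acylation uses Agpat2, the enzyme whose loss in humans causes congenital lipodystrophy, and Agpat3, a relative expressed in many tissues. Agpat2 (ENSMUSG00000026922) lies on chromosome 2 from 26593057 to 26604417 on the minus strand. It stood at 28.4, 43.1 and 64.7 FPKM in Rb1 replicates 1, 2 and 3, against 69.7, 53.8 and 55.1 in the CTR replicates. Rb1 replicates 1 and 2 were below all CTR samples and Rb1 replicate 3 was within their range. The log2 fold change was -0.33 (SE 0.31, 95% interval -1.05 to 0.39, edgeR adjusted p = 0.747). Leaving out Rb1 replicate 1 gave -0.05, and leaving out Rb1 replicate 3 gave -0.70. In the annotation 64 of 2130 exon bases of Agpat2 overlap Egfl7, an endothelial gene on the opposite strand. Egfl7 stood at 12.6, 6.50 and 8.99 FPKM in the Rb1 replicates, against 12.7, 8.57 and 7.33 in the CTR replicates, and its part in the Agpat2 values was not tested.

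Agpat3 (ENSMUSG00000001211), on chromosome 10 from 78269178 to 78352489 on the minus strand, overlaps exons of Gm40709, a bidirectional promoter lncRNA gene on the opposite strand. It stood at 12.8, 13.9 and 12.3 FPKM in the Rb1 replicates, against 11.9, 11.8 and 11.8 in the CTR replicates. All Rb1 values lay above all CTR values, as they did for 5.48% of the genes tested, and this held after TMM scaling. In either direction 2 of the 10 genes, Gpam and Agpat3, had FPKM values that did not overlap, beside 16.0% of all genes tested. On the TMM scale it was 1 of 10 beside 17.5%, so both shares were near the background. For Agpat3 the log2 fold change was 0.18 (SE 0.11, 95% interval -0.07 to 0.43, edgeR adjusted p = 0.577), and it was 0.10 without Rb1 replicate 2.

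Lpin1 (ENSMUSG00000020593) encodes the phosphatidate phosphatase lipin-1, which is lost in the fatty liver dystrophy mouse and also acts as a nuclear co-regulator. It lies on chromosome 12 from 16535669 to 16610966 on the minus strand and shares no exon positions. Lpin1 stood at 20.0, 30.7 and 27.7 FPKM in the Rb1 replicates, against 18.2, 18.2 and 26.1 in the CTR replicates. Rb1 replicates 2 and 3 were above every CTR sample, while Rb1 replicate 1 lay within the CTR range. The log2 fold change was 0.37 (SE 0.25, 95% interval -0.21 to 0.96, edgeR adjusted p = 0.626). It was 0.57 without Rb1 replicate 1 and 0.59 without CTR replicate 3, and 0.215 without Rb1 replicate 2. Lpin1 made up 89.4% to 89.5% of the summed FPKM of the 3 lipins in Rb1 samples and 81.4% to 86.9% in CTR samples. These shares did not overlap, whereas the Lpin1 values themselves did. In the other families of these steps, the Gpat4 share of the Gpat family also separated the groups. It was 30.8% to 40.0% in Rb1 samples and 24.4% to 28.7% in CTR samples. The family shares of Gpam, Gpat3, Agpat2, Dgat2, Pck1 and Gpd1 overlapped. How often shares separate the groups in families outside this pathway was not computed. Lpin2 and Lpin3 had log2 fold changes of -0.22 and -0.24 (edgeR adjusted p = 0.556 and 0.810).

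The last step is shared by Dgat1 and Dgat2, enzymes of unrelated sequence. Dgat2 (ENSMUSG00000030747), linked in mice to the bulk of stored triglyceride, lies on chromosome 7 from 99153658 to 99182719 on the minus strand. It stood at 194, 334 and 403 FPKM in Rb1 replicates 1, 2 and 3, against 488, 342 and 361 in the CTR replicates. Rb1 replicates 1 and 2 were below all CTR samples, and Rb1 replicate 3 exceeded CTR replicates 2 and 3. The log2 fold change was -0.29 (SE 0.30, 95% interval -0.999 to 0.42, edgeR adjusted p = 0.776). It was -0.02 without Rb1 replicate 1, -0.545 without Rb1 replicate 3 and -0.15 without CTR replicate 1. Dgat1 (ENSMUSG00000022555), on chromosome 15 from 76502015 to 76511953 on the minus strand, stood at 16.7, 16.6 and 18.3 FPKM in the Rb1 replicates, against 17.3, 15.8 and 17.1 in the CTR replicates. Its log2 fold change was 0.08, with the narrowest interval of the 10 (SE 0.10, 95% interval -0.16 to 0.32, edgeR adjusted p = 0.814). It was 0.145 without Rb1 replicate 1, 0.02 without Rb1 replicate 3 and 0.05 without CTR replicate 2. With Adipoq, Plin1, Cidec and Fabp4 as the scale it was -0.04. Neither Dgat gene shares exon positions with another annotated gene.

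**Figure D2:**
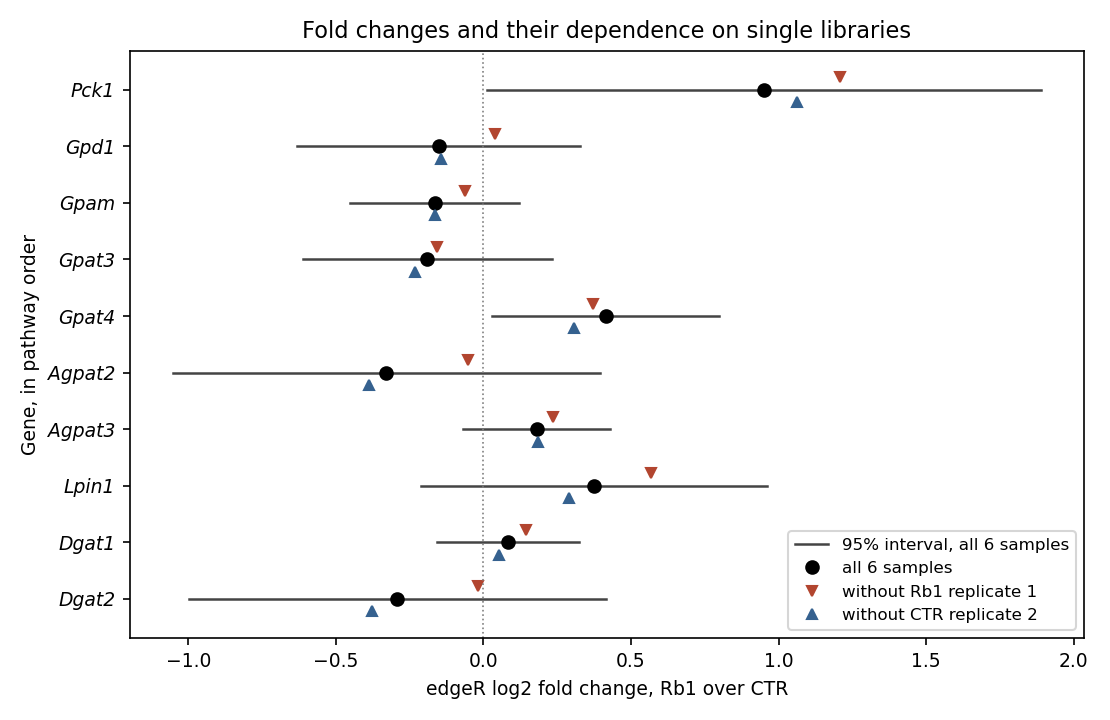
edgeR log2 fold changes of Rb1 over CTR for the 10 genes in pathway order, with 95% intervals over all 6 samples, and the values without Rb1 replicate 1 or without CTR replicate 2. The unadjusted intervals of Pck1 (0.01 to 1.89) and Gpat4 (0.03 to 0.80) have lower ends just above 0 (edgeR adjusted p = 0.429 and 0.410). Without Rb1 replicate 1, Agpat2 and Dgat2 move to -0.05 and -0.02.

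Single libraries set much of the spread. Rb1 replicate 1 held the lowest FPKM of the 6 samples for 4 of the 10 genes (Gpam, Agpat2, Dgat2 and Gpd1), beside 12.4% of all genes tested. On the log2 scale relative to the CTR mean, that library was at -1.07 for Agpat2, -1.03 for Dgat2 and -0.58 for Gpd1, and at 0.54 for Gpat4, whose highest value it held. CTR replicate 2 held the lowest value for another 4 (Gpat4, Agpat3, Lpin1 and Dgat1), beside 14.7% of all genes. Pck1 was lowest in CTR replicate 1, at -0.81, where Dgat2 and Agpat2 had their highest values, 0.30 and 0.23. The coefficient of variation was larger in Rb1 samples than in CTR samples for 6 of 10 genes, beside 54.8% of all genes. Without Rb1 replicate 1 and CTR replicate 2 together, log2 fold changes of Pck1, Lpin1 and Gpat4 were 1.32, 0.48 and 0.26, and none of the 10 passed in edgeR (adjusted p of Pck1 0.388).

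**Figure D3:**
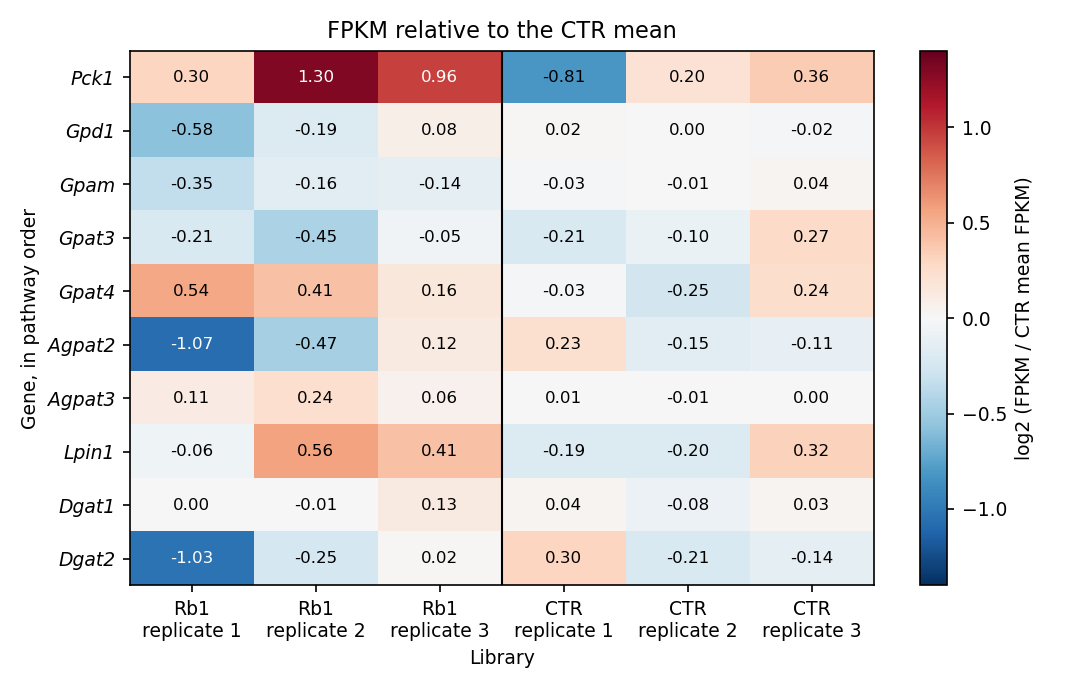
Each cell gives log2 of a library's FPKM over the mean of the 3 CTR libraries, with genes in pathway order down the page and Rb1 libraries left of CTR libraries. Rb1 replicate 1 is at -1.07 for Agpat2 and -1.03 for Dgat2, and Pck1 ranges from -0.81 in CTR replicate 1 to 1.30 in Rb1 replicate 2.

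Ratios between genes of a library do not depend on how libraries are scaled, so 6 ratios of FPKM values were compared with exact two-sided permutation tests. With 3 samples a group such a test cannot give a p below 0.1.  The ratio of Pck1 to Gpd1 was 0.874, 1.34 and 0.875 in Rb1 replicates 1, 2 and 3, against 0.268, 0.550 and 0.617 in the CTR replicates. Every Rb1 library thus had more Pck1 relative to Gpd1 than any CTR library, with a difference of 1.16 in mean log2 ratio (exact permutation p = 0.1, adjusted p = 0.2 over 6 ratios). The ratio of Gpam to Gpat4 was 0.868, 1.09 and 1.31 in the Rb1 replicates, against 1.61, 1.91 and 1.40 in the CTR replicates, a difference of -0.60. Gpat3 to Gpat4 was 0.635, 0.591 and 0.926 in the Rb1 replicates, against 0.944, 1.19 and 1.09 in the CTR replicates, a difference of -0.61. Both had an exact permutation p of 0.1 and an adjusted p of 0.2. Gpat4 is the denominator of both, so they are not independent. How often ratios of other genes separate the groups was not computed.

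The other 3 ratios overlapped. Dgat2 to Dgat1 was 11.6, 20.1 and 22.1 in the Rb1 replicates, against 28.3, 21.6 and 21.0 in the CTR replicates (difference in mean log2 ratio -0.44, exact permutation p = 0.3). Agpat2 to Agpat3 was 2.22, 3.10 and 5.25 in the Rb1 replicates, against 5.87, 4.58 and 4.66 in the CTR replicates (-0.60, exact permutation p = 0.3). For both pairs Rb1 replicate 1 had the lowest ratio of all libraries, and without it the differences were -0.155 and -0.31. Agpat2 to Agpat3 differed by -0.93 without Rb1 replicate 3. Lpin1 to Agpat2 differed by 0.79 (exact permutation p = 0.2), and each of these 3 had an adjusted p of 0.3.

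**Figure D4:**
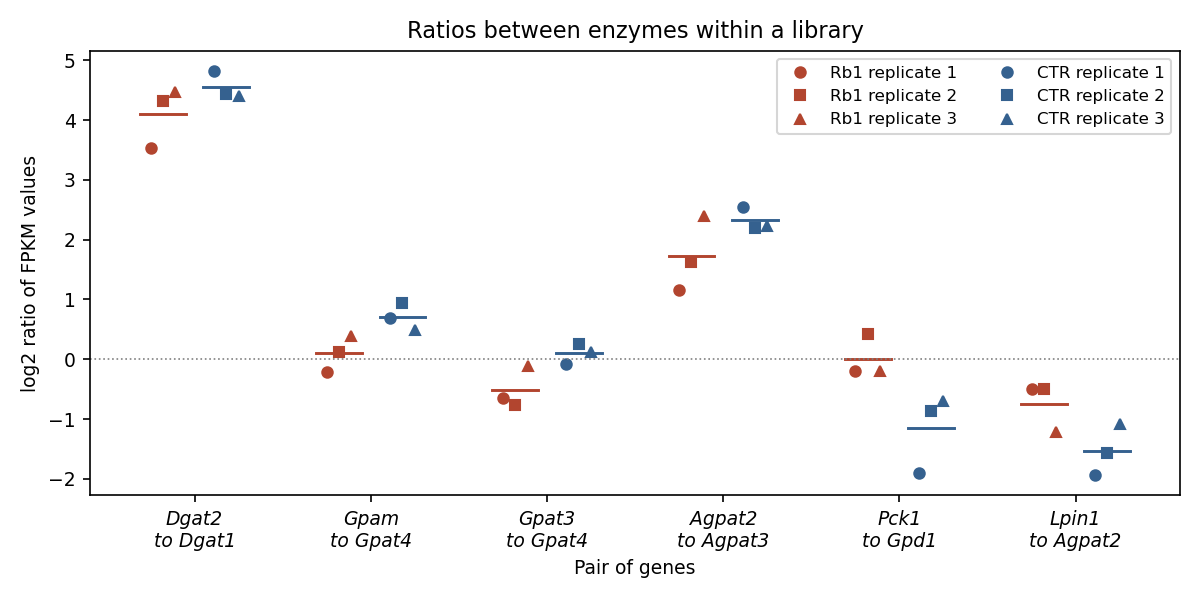
Log2 ratios of FPKM between 2 genes of the same library, with Rb1 samples left of CTR samples, each symbol 1 library and horizontal lines the group means (n = 3 each). The groups do not overlap for Gpam to Gpat4, Gpat3 to Gpat4 and Pck1 to Gpd1, and Rb1 replicate 1 is the lowest library for Dgat2 to Dgat1 and Agpat2 to Agpat3.

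Other genes of the pathway were taken from 6 lists. Of 61 genes 59 could be tested, and edgeR called 0 of them, with 3 on the higher side (beside 4.01% of all genes) and 4 on the lower side (beside 7.54%) at an unadjusted p under 0.05. DESeq2 called 2, Aqp7 higher and Insig1 lower, beside 2.56% of all genes. The 59 had 30 positive and 29 negative log2 fold changes and a median of 0.00, beside 0.01 over all genes. FPKM values did not overlap for 2 genes higher in Rb1 (Aqp7 and Crls1), beside 5.48% of all genes, and for 10 lower in Rb1, beside 10.5%. Those 10 were Agpat1, Lpin2, Got1, Acsl3, Acsl6, Cds1, Pgs1, Cebpb, Insig1 and Bscl2, of which Pgs1 is named only for this count.

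Among routes to and from glycerol 3-phosphate, Aqp7, the channel through which fat cells release and take up glycerol, stood at 162, 99.6 and 124 FPKM in the Rb1 replicates, against 78.1, 86.0 and 85.4 in the CTR replicates. All Rb1 samples were above all CTR samples, with a log2 fold change of 0.66 (SE 0.17, edgeR adjusted p = 0.246, DESeq2 adjusted p = 0.0160). Without Rb1 replicate 1, which held the highest value, the log2 fold change was 0.51. Gk, the glycerol kinase, was low at 1.24 ± 0.217 FPKM in Rb1 samples and 1.42 ± 0.299 in CTR samples (SD, n = 3 each), and Gpd2, the mitochondrial dehydrogenase that consumes glycerol 3-phosphate, was at 6.94 ± 1.09 and 6.51 ± 2.38. Neither passed (edgeR adjusted p = 0.823 and 0.900). Tpi1, a glycolytic isomerase that makes dihydroxyacetone phosphate, had a log2 fold change of -0.40 (edgeR adjusted p = 0.574). Pgp, a phosphatase that acts on glycerol 3-phosphate, had a log2 fold change of -0.09 (edgeR adjusted p = 0.889), and Gpd2 of 0.13. Tpi1, Pgp and Gpd2 were highest in CTR replicate 2, the library with muscle transcripts. Without that library their log2 fold changes were -0.16, 0.03 and 0.48. The 5 tested genes of that list had a median of -0.09. Aqp3 had 7 counts or fewer in each library and was not tested.

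Isoenzymes of the same steps had a median log2 fold change of -0.05 over 9 tested genes, 4 positive and 5 negative, and 0 passed in edgeR or DESeq2, with 1 at an unadjusted edgeR p under 0.05. That gene was Mogat1, which makes diacylglycerol from monoacylglycerol. Its FPKM was 1.53, 3.36 and 3.46 in the Rb1 replicates, against 1.50, 1.55 and 1.81 in the CTR replicates. Rb1 replicates 2 and 3 were above all CTR samples and replicate 1 was within their range (log2 fold change 0.84, SE 0.35, edgeR adjusted p = 0.430). Gpd1l, a relative of Gpd1, had a log2 fold change of 0.22 (SE 0.10, edgeR adjusted p = 0.442). The acyltransferases Agpat1, Agpat4 and Agpat5 had log2 fold changes of -0.05, 0.19 and -0.29 (edgeR adjusted p = 0.889, 0.765 and 0.522), and Mogat2, a relative of Mogat1, of -0.33 (edgeR adjusted p = 0.823).

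Suppliers of the pathway showed no common direction. The 9 genes that feed glyceroneogenesis had a median of -0.05. Among them Got1, a cytosolic aspartate aminotransferase, had the smallest p (log2 fold change -0.60, and -0.32 without CTR replicate 2, edgeR adjusted p = 0.430). Acyl-CoA supply had a median of 0.00 over 9 genes, and its smallest p belonged to Acsl6, which was under 0.2 FPKM in all samples (log2 fold change -1.37, and -0.47 without CTR replicate 2, edgeR adjusted p = 0.451). Acsl3, an acyl-CoA synthetase of lipid droplets, had a log2 fold change of -0.43, and -0.26 without CTR replicate 2 (edgeR adjusted p = 0.496 with all samples). Slc27a1, a fatty acid transport protein, stood at 84.3, 36.8 and 36.7 FPKM in the Rb1 replicates, against 32.9, 34.5 and 44.6 in the CTR replicates. Only Rb1 replicate 1 was outside the range of the CTR samples, and the log2 fold change was 0.51 (edgeR adjusted p = 0.612) and 0.06 without that library. The phospholipid branch, which draws on the same phosphatidate and diacylglycerol, had a median of 0.07 over 13 genes. Its smallest p belonged to Crls1, cardiolipin synthase, at 9.38, 6.54 and 6.88 FPKM in the Rb1 replicates, against 4.50, 6.12 and 5.17 in the CTR replicates. All Rb1 values were above all CTR values (log2 fold change 0.56, SE 0.17, edgeR adjusted p = 0.309). Cds1, which turns phosphatidate toward phosphatidylinositol and cardiolipin, had a log2 fold change of -0.30 and Cds2 of 0.37 (edgeR adjusted p = 0.423 and 0.471).

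Regulators had a median of 0.00 over 14 genes, 7 positive and 7 negative. Insig1, which holds the sterol-sensing complex in the endoplasmic reticulum, stood at 67.7, 66.0 and 83.1 FPKM in the Rb1 replicates, against 135, 125 and 108 in the CTR replicates, without overlap (log2 fold change -0.71, SE 0.15, edgeR adjusted p = 0.195, DESeq2 adjusted p = 0.000941). Cebpb, a transcription factor of early fat cell formation, stood at 17.3, 19.4 and 17.9 FPKM in the Rb1 replicates, against 24.0, 26.1 and 27.0 in the CTR replicates, also without overlap (log2 fold change -0.46, SE 0.13, edgeR adjusted p = 0.269). Bscl2, which encodes seipin of the lipid droplet, had a log2 fold change of -0.26 (edgeR adjusted p = 0.524). Pparg, Srebf1 and Mlxipl, transcription factors named by rule, had log2 fold changes of -0.10, 0.10 and 0.18 (edgeR adjusted p = 0.840, 0.902 and 0.770). Their 95% intervals were -0.41 to 0.22, -0.41 to 0.61 and -0.24 to 0.59. The list holds further transcription factors that the rule for names left out.

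**Figure D5:**
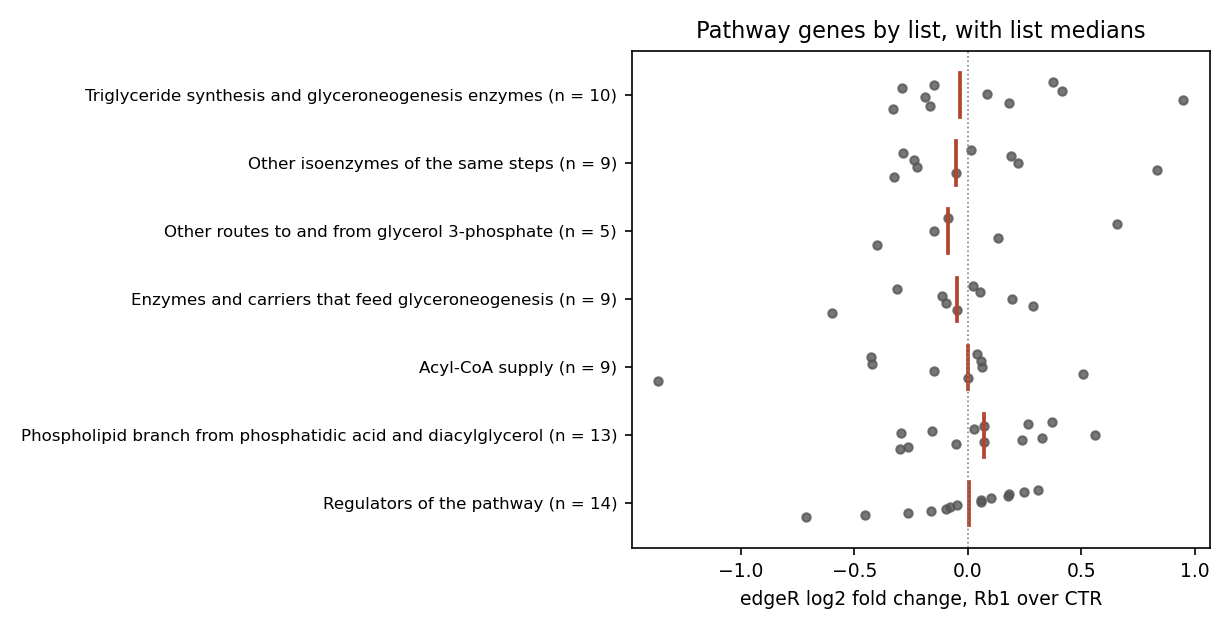
edgeR log2 fold changes of Rb1 over CTR for each tested gene of the 10-gene set and of 6 further lists, 1 point per gene (height within a row has no meaning), with red lines at the list medians. List medians lie between -0.09 and 0.07, and the largest positive value is that of Pck1, 0.95.

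The genes whose pattern over the 6 samples was nearest to the median profile of the 10 were Capns1, Pex5, Abhd14a, Timm13 and Ywhag, among 9551 other genes whose mean reached 10 CPM. Likeness was the mean absolute difference of centred log2 CPM, which was 0.03 for Capns1 and 0.04 for Ywhag. Of the members, Dgat1 was nearest to that profile, at 0.06, and Pck1 was farthest, at 0.48.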

How the data were processed

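Total RNA of white adipose tissue was sequenced after column extraction and standard Illumina library preparation, per the labels' protocols. CASAVA 1.8 and TopHat2 2.0.6 with build mm10 are named in the submitters' processing notes. The sources used here do not state the counting tool, annotation release, strand setting or filters, so where exons of opposite strands overlap, their reads cannot be assigned with certainty. Per the file headers, the authors deposited raw read counts and FPKM per Ensembl gene. Each FPKM value deposited by the authors was the count over gene length and column total (checked on 13169 genes, largest relative spread 0.00984%), so a library in which a few genes take more reads shows lower FPKM elsewhere. Counts were tested and FPKM used for levels and ratios. Symbols and coordinates were taken from GENCODE M21 (GRCm38, equal to mm10), in which 21933 of 22040 identifiers matched.

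edgeR 4.0.16 in R 4.3.3 was run with TMM, the default expression filter (minimum count 10, minimum total 15) and a quasi-likelihood test for Rb1 over CTR without covariates. Standard errors came from the F statistic, and 95% intervals from it and its degrees of freedom. DESeq2 1.42.0, other scalings (RLE, library size alone, the geometric mean of Adipoq, Plin1, Cidec and Fabp4), no filter, a replicate block and leaving out each sample were alternatives. Leaving out Rb1 replicate 1 and CTR replicate 2 together was chosen after seeing the data. The edgeR step was tested on simulated data. The limit that a count of 0 allows (3 counts) covers counting error only, whereas the 95% intervals include the spread between samples. Counts of every pair of samples differed beyond sampling noise (chi-square per degree of freedom at least 30.4). The genes and lists were chosen with earlier results of these data known. The rule for names took the 10 genes, the tested isoenzymes and glycerol 3-phosphate genes, up to 3 genes of smallest p in each other list, Pparg, Srebf1 and Mlxipl, and the 5 genes of nearest pattern with a mean of at least 10 CPM.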

Additional observations from a re-analysis of the deposited data

How the results depend on the processing

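None of the 10 genes passed in edgeR or DESeq2 under any of the 13 alternatives, and the smallest adjusted p among them there was 0.164. Of 130 values recomputed for the 10 genes 127 kept their direction. The exceptions were Dgat1, with Adipoq, Plin1, Cidec and Fabp4 as the scale (-0.0369), and Gpd1. Gpd1 reversed without Rb1 replicate 1 (0.0378) and without both Rb1 replicate 1 and CTR replicate 2 (0.0409). Its leave-one-out values ran from -0.34 to 0.04. Adipocyte scaling also moved the median of all genes from 0.01 to -0.11, so relative to all genes Dgat1 stayed slightly positive under it. The 48 recomputed ratio differences kept their direction.

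Over all genes, edgeR called 1 gene, 1 to 4 when 1 sample was left out (3 without Rb1 replicate 1, 4 without Rb1 replicate 2, 2 without Rb1 replicate 3), and 10 without both Rb1 replicate 1 and CTR replicate 2. DESeq2 called 374, and 2 genes of the pathway lists. The cause was not tested. With the replicate number as a block edgeR called 1 gene and 0 of the 10, and Pck1 had a log2 fold change of 0.98 (adjusted p = 0.241). Deviations from group means correlated at 0.136, -0.109 and 0.018 for numbers 1, 2 and 3, and at -0.265 to 0.262 for unlike numbers. With 3 samples a group this cannot settle whether the numbers pair the samples. With 3 samples a group, standard errors of the 10 genes ran from 0.10 (Dgat1) to 0.40 (Pck1) on the log2 scale, and how much of this is counting error was not separated. Gpat2 and Aqp3 were too low to test.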

Other observations

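The following genes were chosen after their values were seen. Of the 10 mature adipocyte markers, Adrb3 and Cfd shared part of the sample order of Pck1. Rb1 replicate 2 was highest, Rb1 replicate 3 next and CTR replicate 1 lowest, and the remaining samples were ordered differently in each gene. How many of all genes share this was not computed. Adrb3, the beta-adrenergic receptor of fat, stood at 9.84, 32.2 and 19.9 FPKM in Rb1 replicates 1, 2 and 3, against 4.06, 13.3 and 7.22 in the CTR replicates. Cfd, the secreted protease adipsin, stood at 1387, 1983 and 1561 FPKM in the Rb1 replicates, against 612, 748 and 1246 in the CTR replicates, without overlap. Lipe, hormone-sensitive lipase, was also higher in every Rb1 sample (193 to 212 FPKM, against 142 to 177 in CTR samples). Adipoq was lower in every Rb1 sample (1275 to 1511 FPKM, against 1513 to 1672). Over all genes tested, FPKM values were higher without overlap in Rb1 for 5.48% and lower for 10.5%. Plin1, Cidec, Fabp4, Cidea, Lep and Retn overlapped, with means of Lep at 957 FPKM in Rb1 samples and 1236 in CTR samples.

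Acsl1, an acyl-CoA synthetase of fat cells, was lowest in Rb1 replicate 1, as Dgat2 and Agpat2 were, beside 12.4% of all genes tested. Other genes of the pathway lists were lowest there too, Acsl3 and Tpi1 among them. Acsl1 stood at 63.7, 89.8 and 158 FPKM in the Rb1 replicates, against 137, 122 and 102 in the CTR replicates.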
